A study of Mus musculus with 13 samples.

Results

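The 42 genes described here copy the genome: they license and open replication origins, run the forks, supply deoxynucleotides, start S phase and restore chromatin behind the fork. They were taken from a list of gene symbols, and each was read from the transcript cluster annotated to that gene alone, choosing the cluster with the highest mean over the 13 arrays where a gene had more than 1. All 42 were found among 19938 genes so measured, 40 of them with a single cluster. The members were chosen with earlier results of these data known, so counts over the list are set beside the same counts over all genes and no p-value is given for the list as a whole.

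The arrays measured RNA from the rectum of control mice and of mutants in which Villin-Cre, active in intestinal epithelium, deletes floxed α6 integrin, a laminin receptor subunit of hemidesmosomes. Adenocarcinomas (5 arrays, mice labelled mutant, 53 to 80 weeks old) and the inflamed mucosa beside them (4 arrays, mutant, 53 to 64 weeks) were macrodissected from cryosections of rectal prolapses, whereas normal mucosa (4 arrays, mice labelled control, 53 to 70 weeks) was scraped. Arrays numbered 1 and 6 came from female mice and those numbered 2, 3 and 4 from male mice. The numbers are those of the arrays, and the labels do not say whether tumour and inflamed mucosa of the same number came from the same mouse. The growth protocol sets controls apart from α6fl/fl Villin-Cre mice, yet the genotype label reads α6fl/fl Villin-Cre for all 13 samples, so the alleles of the controls are unclear. Only epithelium is targeted, and stromal and immune cells of the prolapse keep the integrin. Whether each tumour came from a different mouse is not stated, so the p-values measure the spread between these samples.

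In cells preparing to divide, the origin recognition complex with Cdc6 and Cdt1 loads the MCM2-7 ring onto DNA in G1. Cyclin E with Cdk2 and the E2F factors then switch on the S-phase genes, Cdc45 and the GINS complex turn the ring into a moving helicase, and primase and polymerases copy both strands behind it. In the colon this happens in the lower crypt, and it stops as cells mature into surface colonocytes.

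Many of these genes are textbook E2F targets, so the promoter sequence of the list was examined first. RefSeq promoter windows (GRCm38.p6, 250 bases before to 50 after a start site) were at hand for 34 of the 42 genes. The letters TTTNGCGC, an E2F-type motif that includes the forms TTTGGCGC and TTTCGCGC, were found on either strand in 12 of 34 genes (35.3%), against 329 of 15614 array genes with a window (2.11%). A second E2F-type form, TTTCCCGC, occurred in 6 of 34 (17.6%) against 1.76% of array genes. Either form occurred in 15 of 34 genes (44.1%) against 3.76%. CCAAT, a short box found in many promoters, occurred in 19 of 34 (55.9%) against 41.7%. Of the 82 pathway genes described further on, 70 had a window, and 19 of those (27.1%) held either E2F-type form. A match is a description of letters and not a bound site, and a gene with several windows was counted once if any window matched.

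The following stretches show where the letters lie in 3 genes of the list that differed between the groups, and in Rrm2, which had the largest tumour difference and holds neither form. Each is the 250 bases before the start site, 5′ to 3′ on the gene's strand, with the E2F-type letters in capitals. They are Mcm6 (chr1:128359706-128359955, minus strand), Mcm5 (chr8:75109259-75109508, plus strand), Orc1 (chr4:108579204-108579453, plus strand) and Rrm2 (chr12:24708004-24708253, plus strand).
Mcm6: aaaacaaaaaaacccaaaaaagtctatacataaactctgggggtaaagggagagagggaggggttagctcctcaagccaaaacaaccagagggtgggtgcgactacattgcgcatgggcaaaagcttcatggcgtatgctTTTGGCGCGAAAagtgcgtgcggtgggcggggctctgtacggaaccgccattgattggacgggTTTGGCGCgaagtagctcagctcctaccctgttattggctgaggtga
Mcm5: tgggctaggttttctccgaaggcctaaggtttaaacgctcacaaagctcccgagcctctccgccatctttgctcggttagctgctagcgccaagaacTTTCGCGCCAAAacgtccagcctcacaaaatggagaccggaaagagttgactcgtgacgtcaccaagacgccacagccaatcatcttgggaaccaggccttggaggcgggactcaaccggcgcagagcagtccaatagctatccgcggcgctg
Orc1: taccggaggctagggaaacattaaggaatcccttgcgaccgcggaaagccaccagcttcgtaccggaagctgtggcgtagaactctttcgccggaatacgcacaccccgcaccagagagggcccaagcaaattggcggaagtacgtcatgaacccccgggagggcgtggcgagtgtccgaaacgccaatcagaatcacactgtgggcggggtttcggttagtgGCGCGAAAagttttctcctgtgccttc
Rrm2: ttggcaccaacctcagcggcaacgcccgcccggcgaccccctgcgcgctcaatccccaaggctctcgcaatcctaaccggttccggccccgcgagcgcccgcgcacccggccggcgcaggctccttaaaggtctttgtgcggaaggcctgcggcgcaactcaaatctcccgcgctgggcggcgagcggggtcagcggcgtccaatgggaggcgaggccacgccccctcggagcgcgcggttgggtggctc
In Mcm6 the matches begin 110, 106 and 47 bases before the start, the first pair overlapping on opposite strands. Mcm5 has an overlapping pair at 153 and 149 bases, and Orc1 has 1 match on the opposite strand at 27 bases.

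**Figure D1:**
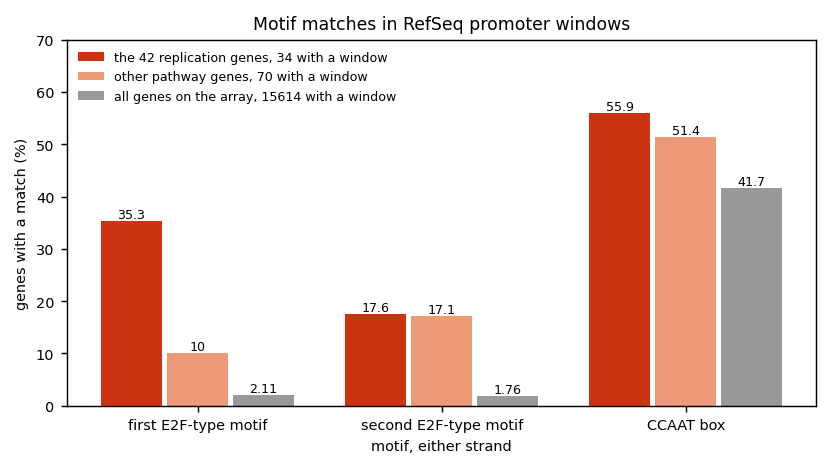
Share of genes with a motif match on either strand (y axis, percent) in RefSeq windows of 300 bases, for 34 of the 42 replication genes, 70 other pathway genes and 15614 genes of the array; the 3 motifs on the x axis are TTTNGCGC, TTTCCCGC and CCAAT. The E2F-type letters were found in 35.3% and 17.6% of the replication genes against 2.11% and 1.76% of array genes, while CCAAT was common in all 3 sets.

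Matches were found both among genes that passed the tests described further on and among those that did not. Of the genes higher in inflamed than in normal mucosa, 10 of 21 with a window (47.6%) held either form, against 5 of 13 (38.5%) of the others. For adenocarcinoma against normal mucosa the shares ran the other way, 8 of 21 (38.1%) against 7 of 13 (53.8%). These are small counts and were not tested.

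Over all deposited clusters the 13 arrays had medians of 6.41 to 6.59 (log2) and pairwise correlations of 0.943 to 0.990. Over the measured genes alone the groups differed more in scale, as the median centring described further on shows. The number of arrays limits the precision. Sex-linked transcripts, on arrays of mice whose sex lacks them, read between 3.60 and 5.57, and 40 of the 42 genes lay above that range on every array. The exceptions were Gins1 and Orc1, which reached down into that range. Itga6 read 11.4 to 11.6 in tumours, 10.9 to 11.2 in inflamed and 10.7 to 11.2 in normal mucosa; the probes cover the whole gene and unrecombined cells also carry it, so it does not check the labels.

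Averaged over the 42 genes, the level was 7.85, 7.98, 8.09, 8.12 and 7.88 in adenocarcinomas 1, 2, 3, 4 and 6, 8.06, 7.91, 7.87 and 7.94 in inflamed mucosa 1 to 4, and 7.43, 7.09, 7.64 and 7.70 in normal mucosa 1, 2, 4 and 6 (mean log2 value per array). Every tumour and inflamed array lay above every normal array, and the tumour and inflamed arrays overlapped throughout. Normal mucosa 2 stood lowest, and it had the lowest value of all 13 arrays in 29 of the 42 genes. The spread between normal arrays was also the widest, with a median SD over the 42 genes of 0.33 against 0.14 in inflamed mucosa and 0.16 in tumours (0.19, 0.14 and 0.15 over all genes). In RNA from pieces of tissue, fewer replicating cells and less transcript per cell cannot be told apart.

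**Figure D2:**
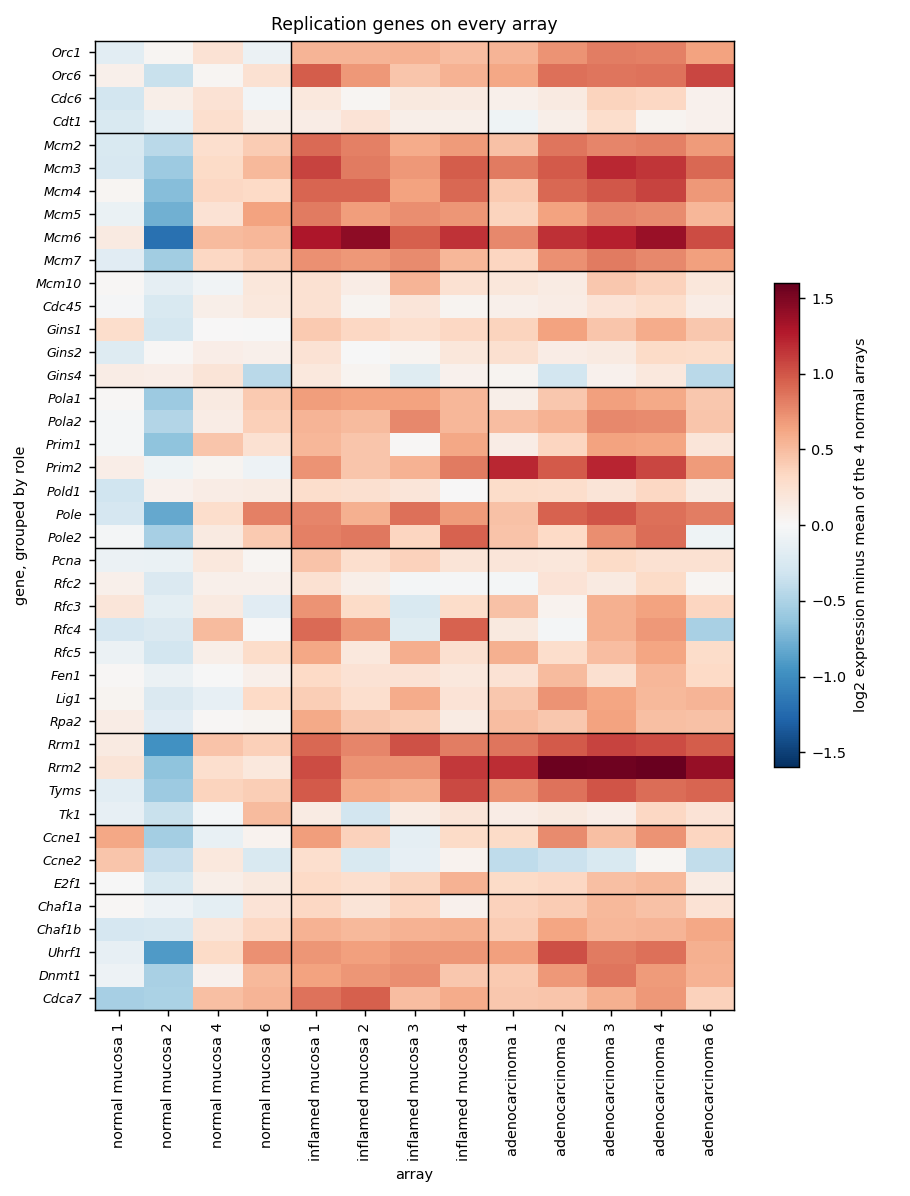
Log2 expression of each of the 42 genes (rows, grouped by role) on each of the 13 arrays (columns), as the difference from the mean of the 4 normal arrays; red is higher and blue lower. Most rows are red on all 9 tumour and inflamed arrays, normal mucosa 2 is the bluest column, and rows such as Gins4, Rfc2, Tk1 and Ccne2 stay pale.

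The first comparison sets the inflamed mucosa of the prolapses against normal mucosa. In inflamed mucosa 24 of the 42 genes were higher than in normal mucosa and 0 lower (limma, adjusted p below 0.05), where 13.7% of all 19938 genes were higher and 13% lower. The median difference over the 42 genes was 0.47 on the log2 scale, against -0.09 over all genes. The arrays of the groups did not overlap in 19 genes, a pattern found in 12% of all genes, and 18 of the 24 were among them. Without normal mucosa 2, the array with the lowest levels, 18 genes were higher and the median difference was 0.36.

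For adenocarcinoma against normal mucosa, 25 of the 42 genes were higher and 0 lower, against 16.4% and 19.4% of all genes. The median difference was 0.50, against -0.10 over all genes. Non-overlapping arrays were found in 20 genes, 18 of them among the 25, against 13% of all genes. Without normal mucosa 2 the count was 20 and the median difference 0.36, and without normal mucosa 6, the normal array with the highest mean level, 30 genes were higher in tumour and 27 in inflamed mucosa. With arrays centred on their medians over the genes, a scaling that moves the median of all genes to -0.28 (inflamed) and -0.24 (tumour), 17 genes were higher and 0 lower in inflamed mucosa, and 21 higher and 1 lower, Ccne2, in tumour. The same scaling turned the calls over all genes from 2730 higher and 2592 lower to 1875 and 9510 in inflamed mucosa, and from 3266 and 3867 to 2491 and 8612 in tumour. Quantile normalization gave 2498 higher and 3580 lower in inflamed mucosa. The median of the 42 genes lay 0.57 (inflamed) and 0.60 (tumour) above that of all genes, a gap that centring cannot move, and 0.48 and 0.44 above it with quantile normalization and 0.51 and 0.48 with cyclic loess. Both comparisons use the same 4 normal arrays, so their results are not independent of each other, and both also compare dissected with scraped tissue, which cannot be told apart from the groups.

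Adenocarcinoma was then set against inflamed mucosa, where 0 of the 42 genes passed in limma's test (2 at an unadjusted p below 0.05), against 2.91% of all genes higher and 4.21% lower. The median difference was 0.05 (-0.01 over all genes), with 25 genes higher and 17 lower in tumour. The 95% confidence interval of the difference lay within 0.5 of 0 on the log2 scale for 27 of the 42 genes and within 1 for 41, so changes of 2-fold or more lie outside the interval for all but Rfc4. Tumour and inflamed arrays of the same number were taken as pairs. Within pairs 1 to 4 the tumour minus inflamed difference of the mean over the 42 genes was -0.20, 0.07, 0.22 and 0.18. The median centring changed the calls over all genes here from 581 higher and 839 lower to 728 and 694. With the pairs as a random replicate block, 2 genes passed, Prim2 and Rrm2, both described with their roles.

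**Figure D3:**
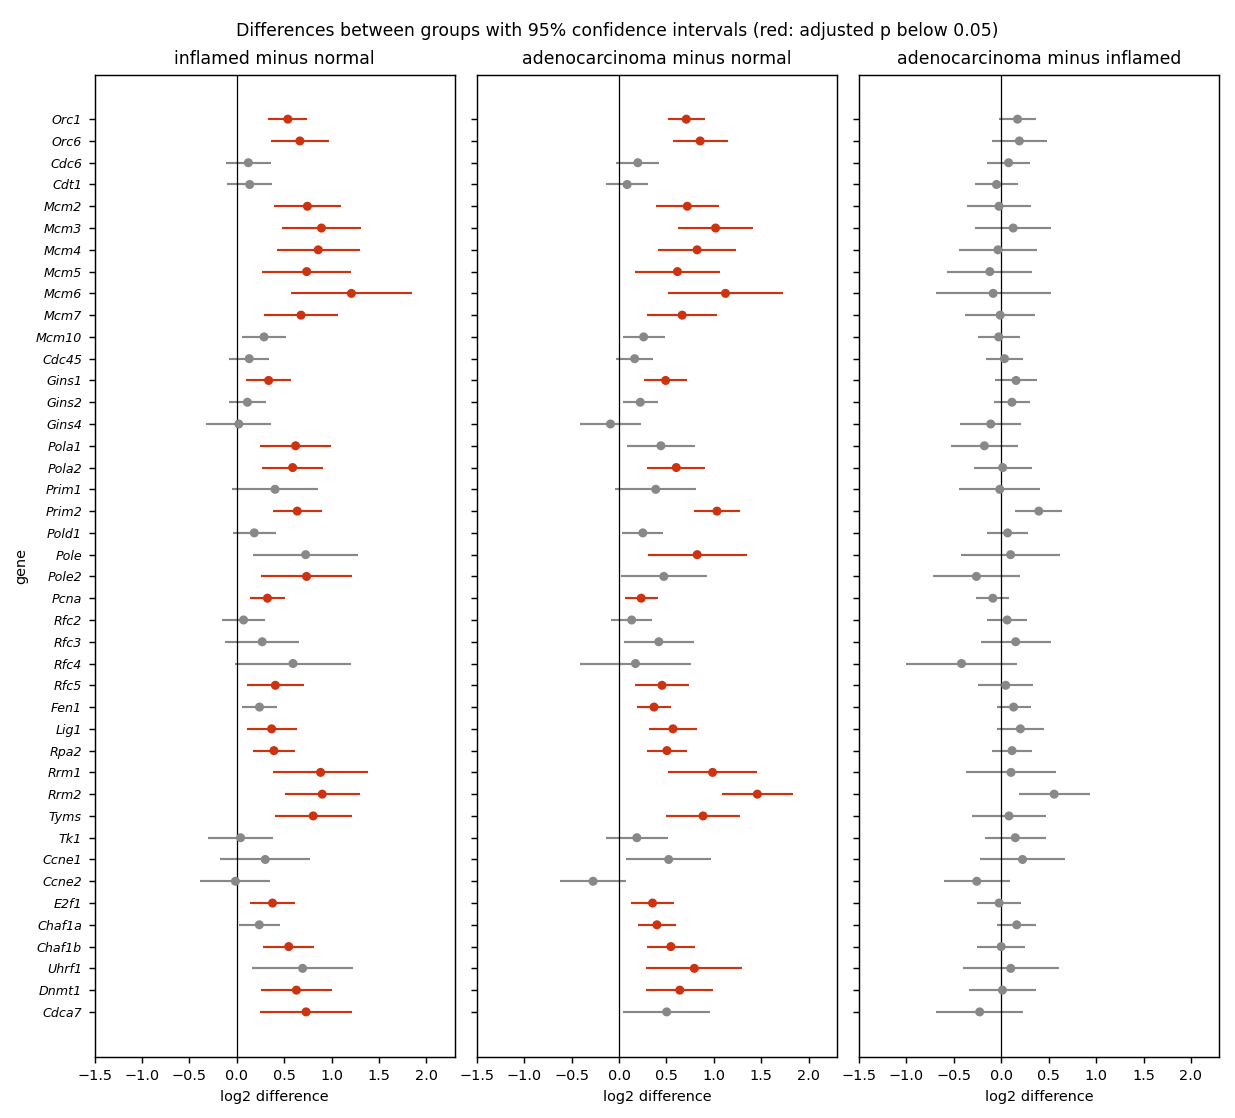
Log2 difference of group means for each of the 42 genes (points) with its 95% confidence interval (lines) in the 3 comparisons; red marks an adjusted p below 0.05 (limma, all genes). Intervals lie right of 0 for 24 and 25 coloured genes in the comparisons with normal mucosa, and no gene is coloured for adenocarcinoma against inflamed mucosa.

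In origin recognition and licensing, the subunits Orc1 and Orc6 were higher in both diseased tissues, while the loading factors Cdc6 and Cdt1 did not pass. These are 2 of 4 genes, against 13.7% (inflamed) and 16.4% (tumour) of all genes. The contrast between the subunits and the loading factors was not tested. The subunits Orc2, Orc3, Orc4 and Orc5 are counted with the other origin genes further on. Orc1, the ATPase subunit, read 6.12, 6.29, 6.40, 6.39 and 6.22 in the adenocarcinomas, 6.12, 6.12, 6.14 and 6.07 in inflamed and 5.40, 5.61, 5.81 and 5.49 in normal mucosa. Its normal arrays all lay below the other 9, and normal mucosa 1 and 6 read within the range of absent transcripts. The difference was 0.54 ± 0.10 in inflamed mucosa (n = 4 and 4; the difference of mean log2 values is given with its SE; limma's adjusted p = 0.00123) and 0.71 ± 0.09 in tumour (n = 5 and 4, adjusted p = 5.9e-05), both against normal. Orc6, the smallest subunit, differed by 0.66 ± 0.14 and 0.86 ± 0.13 (adjusted p = 0.00408 and 0.000292). For Cdt1, which brings the MCM ring to the origin, the tumours read 7.88, 8.04, 8.22, 7.99 and 8.01, inflamed mucosa 8.07, 8.17, 8.04 and 8.04 and normal mucosa 7.70, 7.83, 8.21 and 8.04. Normal mucosa 4 lay above all tumours but 1, and the groups overlapped. The tumour difference of Cdt1 was 0.08 ± 0.10 (adjusted p = 0.529, 95% interval -0.14 to 0.31). Cdc6, the other loading factor, differed by 0.12 ± 0.11 in inflamed mucosa and 0.20 ± 0.11 in tumour (adjusted p = 0.414 and 0.153).

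All 6 subunits of the MCM2-7 ring were higher in inflamed mucosa and all 6 in tumour, against 13.7% and 16.4% of all genes. The median differences from normal were 0.80 and 0.77. Mcm6 had the largest difference of the whole list in inflamed mucosa. It read 8.22, 8.62, 8.69, 8.83 and 8.49 in tumours, 8.74, 8.88, 8.40 and 8.61 in inflamed and 7.60, 6.26, 7.96 and 7.98 in normal mucosa, normal mucosa 2 being the lowest array by far. The differences were 1.21 ± 0.30 (adjusted p = 0.00948) and 1.12 ± 0.28 (adjusted p = 0.00767), and without normal mucosa 2 they were 0.81 and 0.72 (adjusted p = 0.00343 and 0.00332).

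Mcm3 had the smallest adjusted p of the ring in both comparisons with normal mucosa. Its levels were 7.33, 7.49, 7.72, 7.65 and 7.42 in tumours, 7.58, 7.33, 7.20 and 7.47 in inflamed and 6.25, 5.93, 6.81 and 7.02 in normal mucosa, with no overlap between normal arrays and the rest. It differed from normal by 0.89 ± 0.20 in inflamed mucosa (adjusted p = 0.00485) and 1.02 ± 0.19 in tumour (adjusted p = 0.000889). Mcm2, a common proliferation marker, read 8.31, 8.70, 8.62, 8.65 and 8.53, 8.74, 8.64, 8.43 and 8.53 and 7.60, 7.41, 8.11 and 8.24 in the same order of groups. Normal mucosa 6 came closest to the other groups, just below tumour 1, and the differences of Mcm2 were 0.74 ± 0.16 and 0.72 ± 0.16 (adjusted p = 0.00503 and 0.00295). Mcm7 read 8.60, 8.98, 9.09, 9.02 and 8.91 in tumours, 8.98, 8.94, 9.003 and 8.79 in inflamed and 8.07, 7.70, 8.58 and 8.66 in normal mucosa. Here tumour 1 lay below normal mucosa 6, and the differences were 0.68 ± 0.18 and 0.67 ± 0.17 (adjusted p = 0.0149 and 0.00888).

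Mcm4 differed from normal by 0.86 ± 0.20 and 0.82 ± 0.19 (adjusted p = 0.00753 and 0.0049). For Mcm5 the differences were 0.74 ± 0.22 and 0.62 ± 0.21 (adjusted p = 0.0249 and 0.0342). Mcm5 was the one subunit of the 6 whose calls ended when single arrays were left out. Its inflamed call ended without inflamed mucosa 1 or 2 or normal mucosa 1, with adjusted p = 0.0562, 0.0501 and 0.053. Its tumour call ended without tumour 2, 3 or 4 or normal mucosa 1 or 2, with adjusted p between 0.0628 and 0.0918. Between tumour and inflamed mucosa the 6 subunits differed by -0.12 to 0.13, none passing, and the widest 95% interval was that of Mcm6, -0.69 to 0.52.

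Among the factors that activate the ring, Mcm10, Cdc45, Gins1, Gins2 and Gins4, Gins1 alone passed, in both comparisons with normal mucosa. This 1 of 5 (20%) is near the share of all genes that were higher, 13.7% in inflamed mucosa and 16.4% in tumour. Gins1, a subunit of the GINS complex, read 5.36, 5.65, 5.45, 5.60 and 5.44 in tumours, 5.42, 5.33, 5.28 and 5.34 in inflamed and 5.30, 4.72, 5.01 and 5.00 in normal mucosa. These levels lie within or just above the range of absent transcripts, and normal mucosa 1 overlapped the inflamed arrays. Its differences were 0.34 ± 0.11 and 0.49 ± 0.10 (adjusted p = 0.0387 and 0.00271). The inflamed call of Gins1 ended without any 1 inflamed array or normal mucosa 2, 4 or 6 (adjusted p from 0.0516 to 0.11). Gins4, another subunit of the complex, had the smallest inflamed difference above 0 of the list. It read 9.22, 8.89, 9.25, 9.34 and 8.74 in tumours, 9.35, 9.22, 8.98 and 9.25 in inflamed and 9.30, 9.28, 9.38 and 8.75 in normal mucosa, where normal mucosa 6 lay with the lowest tumour and the other normal arrays with the highest. Gins4 differed from normal by 0.02 ± 0.16 and -0.09 ± 0.15 (adjusted p = 0.928 and 0.643, 95% intervals -0.32 to 0.36 and -0.41 to 0.23). Gins2 differed by 0.11 ± 0.09 and 0.22 ± 0.09, Cdc45, the helicase cofactor, by 0.13 ± 0.10 and 0.16 ± 0.09, and Mcm10, a scaffold of fork assembly, by 0.29 ± 0.11 and 0.26 ± 0.10, with adjusted p between 0.0572 and 0.356. The tumour arrays of Gins2 did not overlap the normal ones. Mcm10 passed without normal mucosa 6 in both comparisons (adjusted p = 0.0373 and 0.0367) and in tumour also without inflamed mucosa 3, which enters through the shared spread (adjusted p = 0.0447).

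Among the polymerases and primase, 4 of 7 genes were higher in inflamed mucosa (13.7% of all genes) and 3 of 7 in tumour (16.4% of all genes). Prim2, the large subunit of primase, read 8.49, 8.27, 8.50, 8.36 and 7.98 in tumours, 8.003, 7.74, 7.84 and 8.12 in inflamed and 7.39, 7.22, 7.34 and 7.21 in normal mucosa. The groups followed in steps, with normal arrays below all others and only tumour 6 reaching down among the inflamed arrays. Prim2 was 0.64 ± 0.12 above normal in inflamed mucosa (adjusted p = 0.0019) and 1.03 ± 0.11 above in tumour (adjusted p = 1.67e-05). The tumour minus inflamed difference of 0.40 ± 0.11 did not pass (adjusted p = 0.0545, 95% interval 0.15 to 0.64). Within the pairs it was 0.49, 0.54, 0.66 and 0.23 for numbers 1 to 4, tumour being higher in 4 of 4. With the pairs as a random replicate block Prim2 passed (0.42, adjusted p = 0.0133), as it did with the number as a fixed replicate block (0.45, adjusted p = 0.0247) and without tumour 6 (0.48, adjusted p = 0.0148). It passed under 8 of 26 alternatives, and in 1 of the 13 fits that left out an array (limma's adjusted p up to 0.182).

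Prim1, the catalytic subunit of primase, differed from normal by 0.40 ± 0.21 and 0.39 ± 0.20 without passing (adjusted p = 0.159 and 0.139). The polymerase α subunits were higher in inflamed mucosa, Pola1 by 0.62 ± 0.18 and Pola2 by 0.59 ± 0.15 (adjusted p = 0.0198 and 0.0119). In tumour Pola2 was higher by 0.60 ± 0.14 (adjusted p = 0.00539), while Pola1, at 0.44 ± 0.17, did not pass (adjusted p = 0.0524). It passed without tumour 1 or normal mucosa 6 (adjusted p = 0.0251 and 0.014). For Pole, the catalytic subunit of leading-strand polymerase ε, the confidence intervals were the widest of this role, with differences of 0.73 ± 0.26 in inflamed mucosa (adjusted p = 0.0505) and 0.82 ± 0.24 in tumour (adjusted p = 0.0183). Leaving out normal mucosa 2 ended its tumour call (adjusted p = 0.0546), and its inflamed difference passed without normal mucosa 4 or 6 (adjusted p = 0.0466 and 0.00402). The ε subunit Pole2 was higher by 0.74 ± 0.22 in inflamed mucosa (adjusted p = 0.0272), and its tumour difference of 0.47 ± 0.21 did not pass (adjusted p = 0.0938). Without normal mucosa 2 the inflamed difference of Pole2 was 0.56 (adjusted p = 0.0891), and the call also ended without inflamed mucosa 1, 2 or 4 or normal mucosa 1. Its tumour difference passed without tumour 6 or normal mucosa 6 (adjusted p = 0.0331 and 0.0447). Pold1, the catalytic subunit of lagging-strand polymerase δ, did not pass (0.18 ± 0.11 and 0.25 ± 0.10, adjusted p = 0.197 and 0.0654), although tumour and normal arrays did not overlap.

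**Figure D4:**
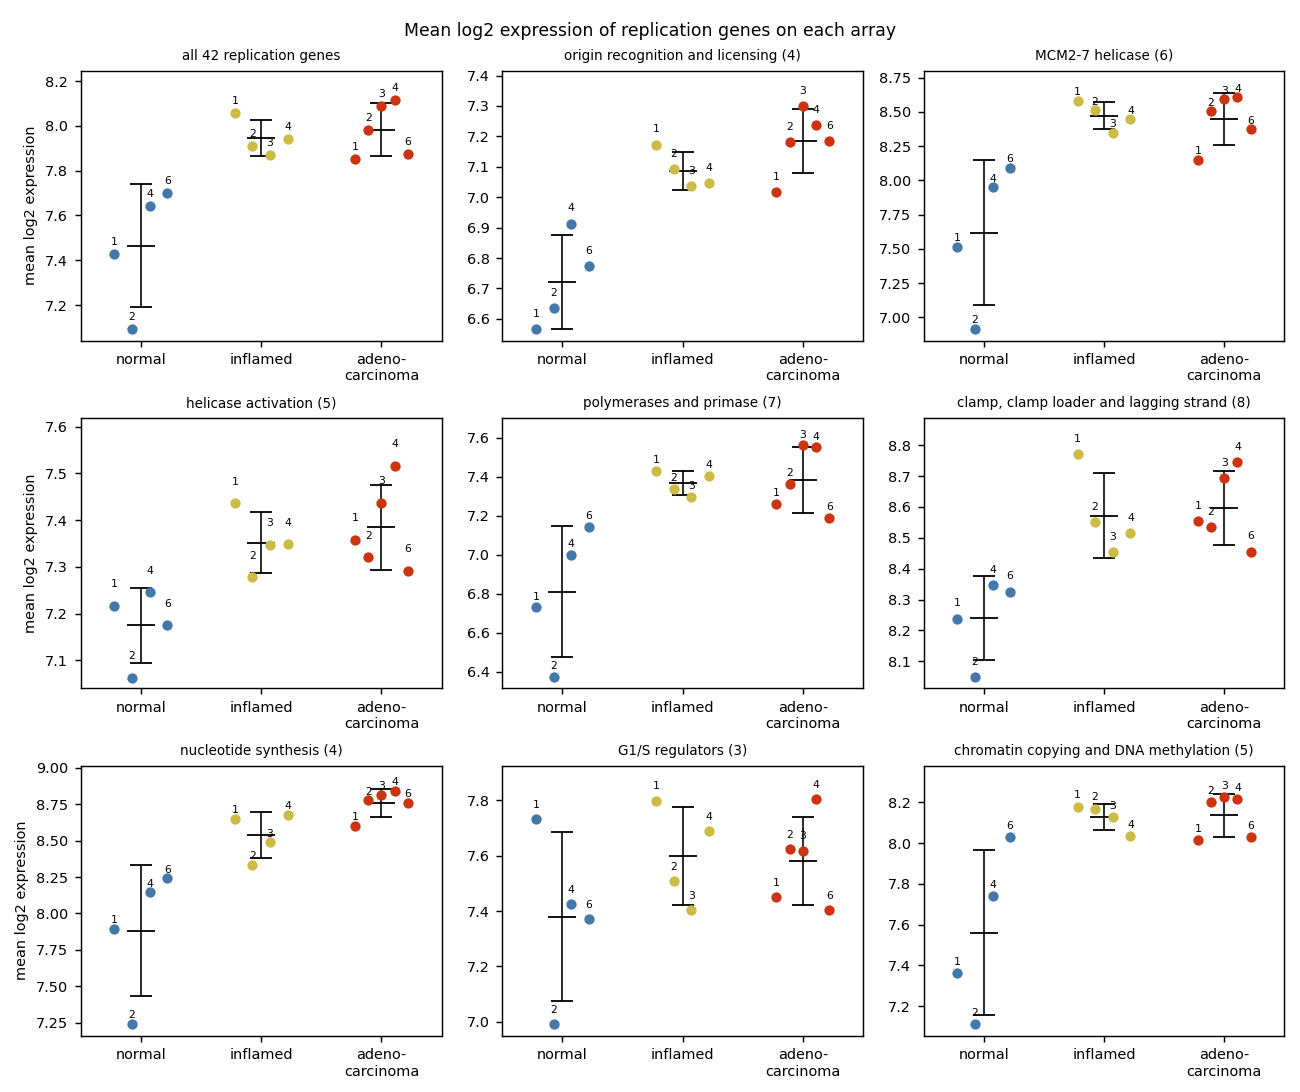
Mean log2 expression of all 42 genes and of each role (panels, number of genes in brackets) on every array, labelled by its number; the bars give the group mean and SD. Normal mucosa 2 is the lowest array in all panels but licensing, where normal mucosa 1 is, and normal arrays overlap the others for the G1/S regulators and for chromatin copying, where normal mucosa 6 lies above tumours 1 and 6.

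Of the genes of the clamp, its loader and the lagging strand, in inflamed mucosa 4 of 8 were higher and in tumour 5 of 8. The shares of all genes were 13.7% and 16.4%, and the median differences of the role were 0.34 and 0.39. Pcna, the sliding clamp that holds polymerases on DNA, read 11.13, 11.12, 11.25, 11.19 and 11.18 in tumours, 11.39, 11.20, 11.31 and 11.14 in inflamed and 10.84, 10.84, 11.10 and 10.97 in normal mucosa. The normal arrays lay below the rest by a narrow margin, and the differences were 0.32 ± 0.09 (adjusted p = 0.014) and 0.23 ± 0.08 (adjusted p = 0.0378). A second cluster of Pcna gave nearly the same readings, from 10.84 in normal mucosa 2 to 11.36 in inflamed mucosa 1. The tumour call of Pcna ended without tumour 2, 3, 4 or 6 or normal mucosa 1 or 2, with adjusted p from 0.0541 to 0.0988.

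Rpa2, a subunit of the single-strand binding protein RPA, had the smallest adjusted p of this role in tumour. Its arrays read 7.85, 7.79, 8.001, 7.84 and 7.83 in tumours, 7.96, 7.79, 7.75 and 7.49 in inflamed and 7.47, 7.17, 7.38 and 7.41 in normal mucosa. Inflamed mucosa 4 came closest to the normal arrays but stayed above them, and Rpa2 differed by 0.39 ± 0.10 and 0.50 ± 0.10 (adjusted p = 0.0141 and 0.00142). Lig1, the ligase that joins Okazaki fragments, read 7.85, 8.14, 8.05, 7.94 and 7.96 in tumours, 7.81, 7.69, 8.01 and 7.64 in inflamed and 7.46, 7.19, 7.29 and 7.74 in normal mucosa. Normal mucosa 6 overlapped the inflamed arrays, not the tumours, and the differences were 0.37 ± 0.12 and 0.57 ± 0.12 (adjusted p = 0.0402 and 0.002). The inflamed call of Lig1 ended without tumour 4, inflamed mucosa 1, 2 or 3 or normal mucosa 1, 2 or 4 (adjusted p from 0.0515 to 0.119).

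Fen1, the flap nuclease of the lagging strand, was higher in tumour by 0.37 ± 0.08 (adjusted p = 0.0039). In inflamed mucosa it differed by 0.24 ± 0.09 without passing (adjusted p = 0.0577), although the arrays did not overlap. Of the clamp loader subunits Rfc2, Rfc3, Rfc4 and Rfc5, only Rfc5 passed, at 0.41 ± 0.14 and 0.45 ± 0.13 (adjusted p = 0.0478 and 0.0186). Its inflamed call ended without any 1 of 11 arrays, all but inflamed mucosa 2 and normal mucosa 6 (adjusted p up to 0.143), and its tumour call without normal mucosa 2 (adjusted p = 0.0677). Rfc4 had the widest spread of all 42 genes within tumours and within inflamed mucosa. It read 9.06, 8.86, 9.46, 9.59 and 8.39 in tumours, 9.81, 9.61, 8.71 and 9.84 in inflamed and 8.63, 8.67, 9.40 and 8.90 in normal mucosa. Tumour 6 was the lowest of all 13 arrays and inflamed mucosa 4 the highest, and the tumour minus inflamed difference was -0.42 ± 0.27 (adjusted p = 0.469, 95% interval -1.004 to 0.17). Without inflamed mucosa 3, Rfc4 passed in inflamed against normal mucosa (0.85, adjusted p = 0.0309). Rfc2 and Rfc3 differed from normal by 0.07 ± 0.10 and 0.27 ± 0.18 in inflamed mucosa and 0.13 ± 0.10 and 0.42 ± 0.17 in tumour, none passing. Rfc3 passed in tumour without tumour 2 or inflamed mucosa 1 or 3 (adjusted p = 0.0408, 0.0466 and 0.0336).

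Nucleotide synthesis genes had the largest median differences among the roles, 0.84 in inflamed mucosa and 0.94 in tumour. In each, 3 of 4 genes were higher, against 13.7% and 16.4% of all genes. The order depends on the measure. As differences of list means the values were 0.66 and 0.88, against 0.85 and 0.83 for the MCM2-7 ring. Rrm2, the small subunit of ribonucleotide reductase, whose supply limits deoxynucleotide production, read 8.45, 8.84, 8.82, 8.85 and 8.66 in tumours, 8.31, 7.99, 7.98 and 8.39 in inflamed and 7.47, 6.62, 7.54 and 7.43 in normal mucosa. All 5 tumours lay above all inflamed arrays and these above all normal arrays. Rrm2 was 0.90 ± 0.18 above normal in inflamed mucosa (adjusted p = 0.00301) and 1.46 ± 0.17 above in tumour (adjusted p = 3.02e-05), the largest tumour difference of the list. Without normal mucosa 2 these were 0.68 and 1.24 (adjusted p = 0.00278 and 1.71e-05).

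The tumour minus inflamed difference of Rrm2, 0.56 ± 0.17, did not pass (adjusted p = 0.0729, 95% interval 0.18 to 0.93). It was the only gene of the list with all tumours above all inflamed arrays, a pattern found in 5.27% of all genes. Within the pairs it was 0.14, 0.85, 0.83 and 0.46 for numbers 1 to 4, tumour being higher in 4 of 4. With the pairs as a random replicate block it passed (0.56, adjusted p = 0.0287), and with the number as a fixed replicate block it did not (0.54, adjusted p = 0.104). Without normal mucosa 2 it also passed, at the same difference of 0.56 (adjusted p = 0.0106). Rrm2 passed under 5 of 26 alternatives, and in 1 of the 13 fits that left out an array (limma's adjusted p up to 0.209).

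Rrm1, the large subunit of the reductase, was higher by 0.88 ± 0.23 and 0.99 ± 0.22 (adjusted p = 0.0137 and 0.00368) and differed between tumour and inflamed mucosa by 0.10 ± 0.22 (95% interval -0.37 to 0.58). Tyms, thymidylate synthase, was higher by 0.81 ± 0.19 and 0.89 ± 0.18 (adjusted p = 0.00732 and 0.0019). Tk1, the salvage thymidine kinase, did not pass, at 0.04 ± 0.16 and 0.19 ± 0.15 (adjusted p = 0.862 and 0.334). Normal mucosa 6 had the highest Tk1 level of all 13 arrays, 8.38, and without it the tumour difference passed (0.36, adjusted p = 0.0344). A second Tk1 cluster also read highest on that array, at 8.27.

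Of the G1/S regulators only E2f1, a transcription factor of the S-phase genes, passed. It is 1 of 3 genes in both comparisons with normal mucosa, where 13.7% (inflamed) and 16.4% (tumour) of all genes were higher. E2f1 read 7.64, 7.66, 7.81, 7.85 and 7.46 in tumours, 7.66, 7.60, 7.69 and 7.89 in inflamed and 7.32, 7.08, 7.43 and 7.49 in normal mucosa. Tumour 6 lay among the normal arrays, and the differences were 0.38 ± 0.11 and 0.35 ± 0.11 (adjusted p = 0.0251 and 0.0204). Both calls were lost when normal mucosa 2 was left out (adjusted p = 0.0757 and 0.0697). The inflamed call also ended without inflamed mucosa 4 (adjusted p = 0.0767) and the tumour call without tumour 4 (adjusted p = 0.0521). Ccne2, a cyclin E, was the only gene of the list with a negative difference in all 3 comparisons. It read 6.74, 6.80, 6.91, 7.18 and 6.76 in tumours, 7.42, 6.90, 7.02 and 7.21 in inflamed and 7.59, 6.78, 7.32 and 6.91 in normal mucosa. The highest reading was in normal mucosa 1, and the groups overlapped. None of its differences passed, at -0.02 ± 0.17, -0.27 ± 0.16 and, tumour minus inflamed, -0.26 ± 0.16 (adjusted p = 0.954, 0.194 and 0.45). Tumour was lower in 4 of 4 pairs, and with arrays centred on their medians the tumour minus normal difference passed (-0.41, adjusted p = 0.043). Ccne1, the other cyclin E, differed by 0.30 ± 0.22 and 0.52 ± 0.21 (adjusted p = 0.306 and 0.0643), and in tumour it passed without normal mucosa 1 (0.73, adjusted p = 0.00864), the normal array in which it was highest, 8.28.

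Genes that copy chromatin and DNA methylation were higher for 3 of 5 in inflamed mucosa and 4 of 5 in tumour, against 13.7% and 16.4% of all genes. Chaf1b, a subunit of the chromatin assembly factor that places histones on new DNA, read 7.85, 8.08, 7.98, 7.99 and 8.07 in tumours, 8.004, 7.96, 8.0 and 8.01 in inflamed and 7.18, 7.19, 7.65 and 7.77 in normal mucosa. The 9 tumour and inflamed arrays lay between 7.85 and 8.08, above all normal arrays. Its differences were 0.55 ± 0.12 and 0.55 ± 0.12 (adjusted p = 0.00592 and 0.00286), and between tumour and inflamed mucosa it had the smallest difference of the list (95% interval -0.25 to 0.25). The partner subunit Chaf1a read 7.21, 7.25, 7.37, 7.31 and 7.08 in tumours, 7.17, 7.05, 7.19 and 6.92 in inflamed and 6.87, 6.77, 6.69 and 7.06 in normal mucosa. It was higher in tumour, where no array overlapped the normal ones, by 0.40 ± 0.10 (adjusted p = 0.00553), and did not pass at 0.24 ± 0.10 in inflamed mucosa (adjusted p = 0.0918, and 0.034 without normal mucosa 6).

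Dnmt1, which copies CpG methylation, was higher by 0.63 ± 0.17 and 0.64 ± 0.16 (adjusted p = 0.0175 and 0.0086). Uhrf1, which brings Dnmt1 to hemimethylated sites, was higher in tumour by 0.79 ± 0.24 (adjusted p = 0.019). Its inflamed difference of 0.69 ± 0.25 did not pass (adjusted p = 0.0534) but did without normal mucosa 4 or 6 (adjusted p = 0.0456 and 0.00653). Cdca7, a partner of the chromatin remodeller Hells, was higher in inflamed mucosa by 0.73 ± 0.22 (adjusted p = 0.0286), a call that ended without inflamed mucosa 1 or 2 or normal mucosa 1 or 2 (adjusted p from 0.0663 to 0.094). In tumour it differed by 0.50 ± 0.21 (adjusted p = 0.0787), passing without normal mucosa 4 or 6 (adjusted p = 0.0297 and 0.0201).

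Calls near the threshold also ended under settings other than leaving out an array. In inflamed mucosa Rfc5, the clamp loader subunit, no longer passed with the random replicate block (adjusted p = 0.0515) or the fixed one (0.0643), with age in the fit, with the 2 groups alone, with either median centring or with array weights (0.104). Lig1 was lost with the fixed replicate block (adjusted p = 0.0593), the 2 groups alone, loess, quantile normalization (0.359), median centring over the genes and array weights. Gins1 was lost with the fixed replicate block (adjusted p = 0.0845), age, the 2 groups alone and either median centring, at most at 0.266. The fixed block also ended the call of Pole2 (adjusted p = 0.0552), as did quantile normalization (0.0538), and made Pole pass (0.0416). This block joins arrays of the same number across all groups, although normal arrays did not pair with the others.

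With the 2 groups alone Mcm5, Rrm1 and Cdca7 did not pass in inflamed mucosa (adjusted p = 0.0647, 0.0501 and 0.0754). Median centring over the genes ended the inflamed calls of Pcna, Rpa2, E2f1 and Cdca7 (adjusted p = 0.248, 0.123, 0.164 and 0.0543), and quantile normalization those of Pola1, Pola2, Rpa2 and E2f1 (0.0843, 0.0592, 0.188 and 0.193). In tumour Pcna was lost with the fixed replicate block (adjusted p = 0.0909), where Rfc3 passed (0.0466), and with age, the 2 groups alone, either median centring (up to 0.371) and array weights. Mcm5 was lost with the 2 groups alone and with median centring over the genes (adjusted p = 0.0694 and 0.0633), and Rfc5 with that centring and with array weights (0.0666 and 0.0538). E2f1 did not pass in tumour with that centring or with quantile normalization (adjusted p = 0.0943 and 0.165), nor Pole and Uhrf1 with quantile normalization (0.0521 and 0.061). The ring subunits Mcm2, Mcm3, Mcm4, Mcm6 and Mcm7, the origin subunits Orc1 and Orc6, and Prim2, Rrm2, Tyms, Chaf1b and Dnmt1 passed under every alternative run in both comparisons with normal mucosa.

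Among 82 measured genes of the same pathway outside the list, 27 were higher and 4 lower in inflamed mucosa, 32 higher and 6 lower in tumour, and 3 higher and 2 lower in tumour than in inflamed mucosa, with medians of 0.31, 0.34 and 0.04. Of all genes 13.7% were higher and 13% lower in inflamed mucosa, 16.4% and 19.4% in tumour, and 2.91% and 4.21% in tumour against inflamed mucosa, so the last count is near that of all genes (3.66% of the 82 higher). De novo purine and pyrimidine genes were higher for 9 of 15 in each comparison with normal mucosa. Ctps, which makes CTP, had the largest rise in both, with means of 8.26 in tumour, 7.57 in inflamed and 6.27 in normal mucosa. It was higher in tumour than in inflamed mucosa by 0.69 ± 0.14 (adjusted p = 0.00912). Other deoxynucleotide and thymidylate genes were higher for 5 of 10 in inflamed mucosa and 4 of 10 in tumour, and Mthfd2, a folate enzyme, rose by 1.07 ± 0.34 in inflamed mucosa (adjusted p = 0.0339). Samhd1, which breaks down deoxynucleotides, went the other way, at 11.2 in normal, 10.3 in inflamed and 9.47 in tumour. The inflamed minus normal difference was -0.89 ± 0.24 (adjusted p = 0.0149) and the tumour minus inflamed difference -0.83 ± 0.23 (adjusted p = 0.042).

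Of other G1/S regulators, 3 of 16 were higher in inflamed mucosa (18.8%) and 1 lower, against 13.7% and 13% of all genes. In tumour 7 of 16 were higher than in normal mucosa (43.8%, against 16.4%) and 3 lower (19.4% of all genes). The inflamed count of higher genes and the tumour count of lower genes are near these shares. Ccnd1, cyclin D1, was higher in tumour by 1.78 ± 0.18 against normal (adjusted p = 5.99e-06) and by 1.10 ± 0.18 against inflamed mucosa (adjusted p = 0.00214). Ccna2, cyclin A2, differed between tumour and normal mucosa by 1.42 ± 0.48 (adjusted p = 0.0338), with overlapping arrays. E2f2, a further E2F factor, was higher in tumour than in inflamed mucosa by 0.62 ± 0.14 (adjusted p = 0.0151). The retinoblastoma gene Rb1, a brake on E2F, was lower in tumour, with a tumour minus normal difference of -0.94 ± 0.13 (adjusted p = 0.000102) and a tumour minus inflamed difference of -0.59 ± 0.13 (adjusted p = 0.0132). Its relative Rbl1 was lower too, with differences from normal of -0.50 ± 0.15 in inflamed mucosa and -0.87 ± 0.14 in tumour (adjusted p = 0.0255 and 0.000414). Other origin, helicase and checkpoint genes were higher for 4 of 21 in tumour and lower for 2. The share higher, 19%, is near the 16.4% of all genes. In inflamed mucosa 5 of 21 were higher (23.8%, against 13.7% of all genes) and 2 lower, the latter near the 13% of all genes. Dbf4, the activator of the Cdc7 kinase, rose by 0.90 ± 0.26 (adjusted p = 0.0225). Mcmbp, an MCM-binding protein, was lower, with a difference of -0.28 ± 0.10 (adjusted p = 0.0499). The remaining lists, other fork genes and other chromatin copying genes, had 3 of 14 and 2 of 6 higher in inflamed mucosa, 6 of 14 and 2 of 6 in tumour and 0 lower.

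Mitosis genes, a list that holds none of the 42 but shares Top2a with the other fork genes, set 1 array apart. Their mean was 8.14, 7.19, 8.42 and 8.31 in inflamed mucosa 1 to 4, 8.06 to 8.45 in tumours and 7.27, 6.37, 7.65 and 7.91 in normal mucosa 1, 2, 4 and 6. Inflamed mucosa 2 thus lay below 3 of 4 normal arrays in mitosis genes, while its mean over the 42 replication genes, 7.91, lay above all normal arrays. Of 19 mitosis genes, 2 passed as higher in inflamed mucosa (10.5%, against 13.7% of all genes) and 13 in tumour (68.4%, against 16.4%), and 0 in tumour against inflamed mucosa (1 at an unadjusted p below 0.05 in limma's test). All 19 differences from normal were positive in both tissues, with medians of 0.79 in inflamed mucosa, where 13 had an unadjusted p below 0.05, and 0.93 in tumour. For the 42 replication genes these medians were 0.47 and 0.50. The difference between the lists was not tested.

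**Figure D5:**
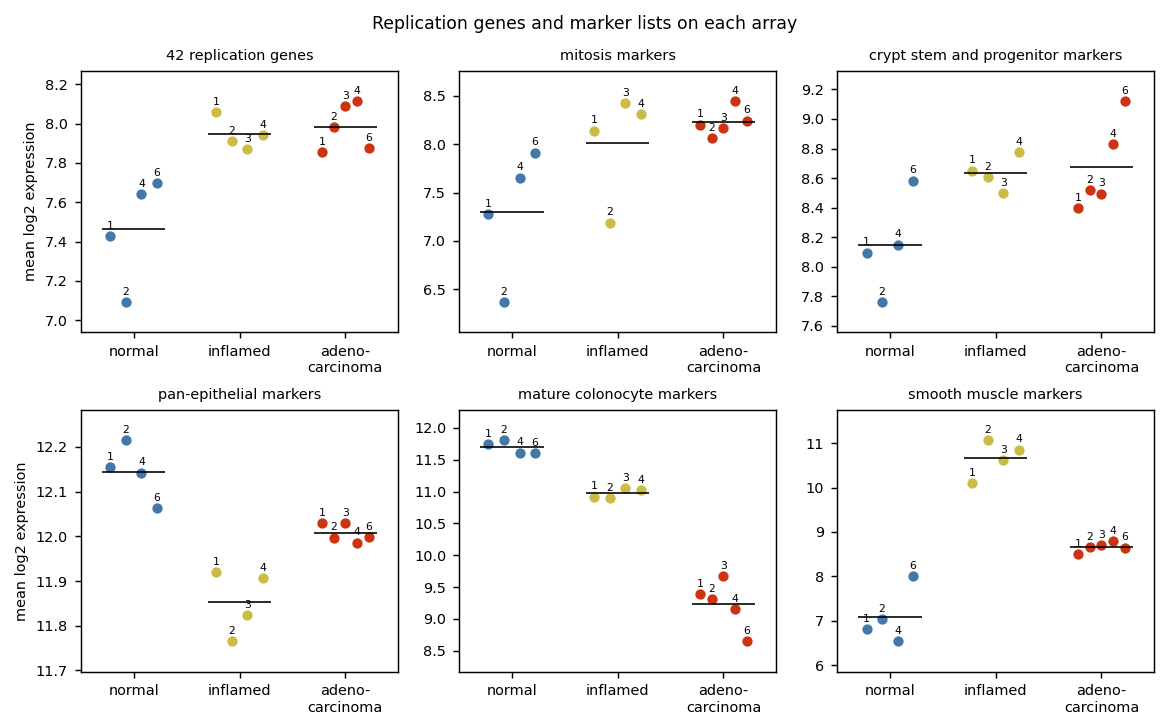
Mean log2 expression of the 42 replication genes and of 5 marker lists (panels) on every array, labelled by its number; lines mark group means. Inflamed mucosa 2 sits at 7.19 in mitosis genes and 7.91 in replication genes, and mature colonocyte genes step down from normal to inflamed mucosa to tumour.

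The tissue behind these values differed too. The marker counts stand beside shares of all genes of 13.7% higher and 13% lower in inflamed mucosa, and 16.4% and 19.4% in tumour. Pan-epithelial markers read 12.1 to 12.2 in normal mucosa, 11.8 to 11.9 in inflamed mucosa and 11.99 to 12.03 in tumours as list means. Of 10 genes, 5 were lower in inflamed mucosa, and 3 were lower and 1 higher in tumour. The share higher in tumour, 10%, is no larger than that of all genes. Mature colonocyte markers fell in 6 of 12 genes in inflamed mucosa and 11 of 12 in tumour, with list means of 11.6 to 11.8 in normal, 10.9 to 11.1 in inflamed mucosa and 8.65 to 9.67 in tumour. Crypt stem and progenitor markers were higher for 3 of 9 in each (Smoc2, Myc and Cd44). Ascl2 was lower in tumour, 1 of 9 and no more than the share of all genes. Smooth muscle markers read 6.53 to 7.997 in normal, 10.1 to 11.1 in inflamed mucosa and 8.50 to 8.79 in tumour, higher for 10 of 10 in inflamed mucosa and 8 of 10 in tumour. Fibroblast (9 of 9 and 9 of 9), endothelial (8 of 8 and 8 of 8) and macrophage markers (8 of 9 and 8 of 9) were higher in inflamed mucosa and tumour. Neutrophil markers were higher for 7 of 8 in tumour and 1 of 8 in inflamed mucosa, where 1 was lower.

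Among lymphocyte lists, whose cells can also replicate, B and plasma cell markers were higher for 6 of 9 in inflamed mucosa and 3 of 9 in tumour, with 1 lower in each. Germinal centre B cell markers were higher for 1 of 6 in inflamed mucosa and lower for 1 of 6 in tumour, their list mean lying between 6.12 and 6.68 on all arrays. T and NK cell markers were higher for 1 and lower for 1 of 10 in inflamed mucosa and lower for 3 in tumour. The germinal centre counts and the inflamed neutrophil and T and NK cell counts are near the shares of all genes, 13.7% higher and 13% lower in inflamed mucosa and 16.4% and 19.4% in tumour. On this array no marker reads as 0, and the part of any cell type in the replication differences was not tested.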

How the data were processed

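RNA from 13 pieces of mouse rectum was measured on Affymetrix Mouse Gene 1.0 ST arrays, in 3 groups taken from the labels. The authors deposited log2 expression values per transcript cluster, computed by RMA with Expression Console 1.1 after scanning with GeneChip Command Console 2.0, per the labels and the series' design text. The submitters' processing notes also name Partek, with no role. RMA brings the probe intensities of the arrays to 1 distribution, which removes differences in total RNA and compresses those of dim genes. The cluster values summarised from them can still differ in distribution between arrays. No build of the array's annotation is given in the sources used.

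Of 35556 transcript clusters, 21789 name 1 gene, 1621 several and 12146 are unnamed in the platform annotation used. The 19938 genes were each read from the cluster with the highest mean. All 3 groups entered 1 limma fit (version 3.58.1, R 4.3.3; lmFit, eBayes), and p-values were adjusted by Benjamini-Hochberg over all 19938 genes, with a threshold of 0.05. The fit was tested on simulated data. The 42 genes and all other lists were chosen with earlier results of these data known. Of the other pathway genes, 82 were measured, and of the markers 119.

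Every array's value is given, by rule, for the gene of each role with the smallest adjusted p in each comparison, the 2 genes with the largest and the 2 with the smallest difference in each comparison, and Pcna, Mcm2 and Rrm2. Of the other pathway genes, up to 3 rises and 3 falls that passed are named per comparison. The promoters printed and the marker genes named singly were chosen after their values were seen.

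Tumour and inflamed arrays with the same number shared deviations from their group means (correlations of 0.319, 0.198, 0.199 and 0.387 for numbers 1 to 4) and were taken as pairs. These arrays also share age and sex, and arrays of unlike numbers were not set beside them. The correlations therefore do not show that a pair came from 1 mouse. Normal arrays did not pair with either (-0.126 to 0.0413). The random replicate block had a consensus correlation of 0.296. Alternatives were a replicate block, sex, age, scaling, a filter on dim genes, the clusters per gene, array weights, the variance model, the groups in the fit and leaving out each array.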

Additional observations from a re-analysis of the deposited data

Results flagged for a closer look

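In 9 of 129 sets of 4 or 5 readings (each of the 42 genes and their mean, in each group) a single array lay far from the rest of its group by Dixon's criterion at 95%, where chance gives about 1 in 20. In normal mucosa these were Rrm2 on array 2, at 6.62 against 7.43 for the next reading, Rfc2 on array 2, at 7.09 against 7.40, Pold1 on array 1, at 6.87 against 7.26, and Gins4 on array 6, at 8.75 against 9.28. In inflamed mucosa, Tk1 read 7.58 on array 2 (next 7.996), Uhrf1 7.42 on array 2 (next 7.46), Mcm4 8.11 on array 3 (next 8.38) and, on the high side, Pola2 8.07 on array 3 (next 7.84). Among tumours Rpa2 stood out on array 3, at 8.001 against 7.85.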

How the results depend on the processing

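Under 26 alternatives (25 for Gins1, which the filter on dim genes left out), 12 of the 24 genes higher in inflamed mucosa and 19 of the 25 higher in tumour passed each time they were tested, and 17 and 20 passed without each array in turn. No difference that had passed changed sign. The median centring over all deposited clusters was chosen after seeing the data.

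For tumour against inflamed mucosa, where 0 of the 42 genes passed, the count was 1 with the number as a fixed replicate block, 2 with the random replicate block, 1 with age, 1 with the 2 groups alone, 1 without the dimmest 25% of genes, 2 with arrays centred on their medians, 1 with quantile normalization and 2 with array weights. Leaving out single arrays gave 0 to 1. Over all genes this comparison called 1420, and 2279 with the random replicate block, 2296 with array weights and 775 (without inflamed mucosa 2) to 1652 without single arrays. Without inflamed mucosa 4 it called 857. The median centring raised the calls over all genes from 5322 to 11385 in inflamed mucosa and from 7133 to 11103 in tumour, and moved the median inflamed difference of the 42 genes from 0.47 to 0.28. Leaving out single arrays gave 3524 (without inflamed mucosa 2) to 5786 calls in inflamed mucosa. The cause of these changes was not tested. Apart from the values given here and beside Prim2 and Rrm2, the replicate blocks moved no count by over 1.5 times.

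The number of arrays and the brightness over background limit precision.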
